A study of Mus musculus with 12 samples.

Results

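Pairs of neighbouring genes at 3 loci of redox biology were followed through mouse macrophages, by the 6 rows of the deposited count table that carry their names: AV051173 and Prdx1, Prdx5 and Trmt112, and Gm15441 and Txnip. These are 6 of the 24552 rows of the table. They were taken by symbol, and were proposed because rows at these loci differed between stimulated and unstimulated cells, so their M1 against M0 values below are a description of that choice, with no test. The genotype comparisons were not part of the choice.

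The study grew macrophages from bone marrow of Gpr31b knockout (KO) and wild-type (WT) mice. GPR31, the protein of Gpr31b, is a G protein-coupled receptor for a 12-lipoxygenase product. Cells were either stimulated with LPS and IFN-γ, a bacterial and a lymphocyte signal that together drive the M1 state, or left unstimulated (M0). The 4 groups were KO M1, KO M0, WT M1 and WT M0, with 3 libraries each and 12 in all. What part of Gpr31b is missing, and the strain, age, dose and duration, are not stated in the labels. The labels number the libraries (KO1, WT1 and so on) without saying that the numbers are separate animals, so the p-values below measure the spread between these libraries, which may be technical.

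Peroxiredoxins are enzymes that reduce hydrogen peroxide with a reactive cysteine and are then themselves reduced by thioredoxin. Prdx1 encodes a cytosolic peroxiredoxin, and Prdx5 encodes one found in mitochondria, peroxisomes and the cytosol. Txnip encodes the thioredoxin-interacting protein, which binds thioredoxin, blocks its reducing activity and also limits glucose uptake. Peroxiredoxin genes are known targets of the stress-responsive transcription factor NRF2, whereas Txnip is known as a target of the glucose-sensing MondoA and ChREBP factors. Activated macrophages make hydrogen peroxide with the phagocyte NADPH oxidase, which is why both sides of this system are of interest in M1 cells. Trmt112 encodes a small partner protein that keeps several methyltransferases stable, and AV051173 and Gm15441 are non-coding RNA genes.

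At each locus 1 gene lies on each strand, and their exons share bases. AV051173 (RefSeq gene 100502959, chr4:116684962-116686022, minus strand) covered the start of Prdx1 (ENSMUSG00000028691, chr4:116685544-116700822, plus strand) and overlapped 279 bases of its exons, in pieces of 117 and 162 bases that are all 5′ UTR. Prdx5 (ENSMUSG00000024953, chr19:6906697-6910106, minus strand) and Trmt112 (ENSMUSG00000038812, chr19:6909698-6911049, plus strand) start towards each other and shared 409 exonic bases, which are annotated as UTR of both genes in at least 1 transcript each. Gm15441 (ENSMUSG00000074398, chr3:96555765-96566801, minus strand) spanned the whole of Txnip (ENSMUSG00000038393, chr3:96557957-96561883, plus strand). Its exons shared 606 bases with those of Txnip, of which 279 lie in UTR and 327 in coding sequence. Coordinates are on GRCm38, the assembly that the listed mm10 build also names, from GENCODE M21 except for AV051173, which is only in RefSeq there.

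**Figure D1:**
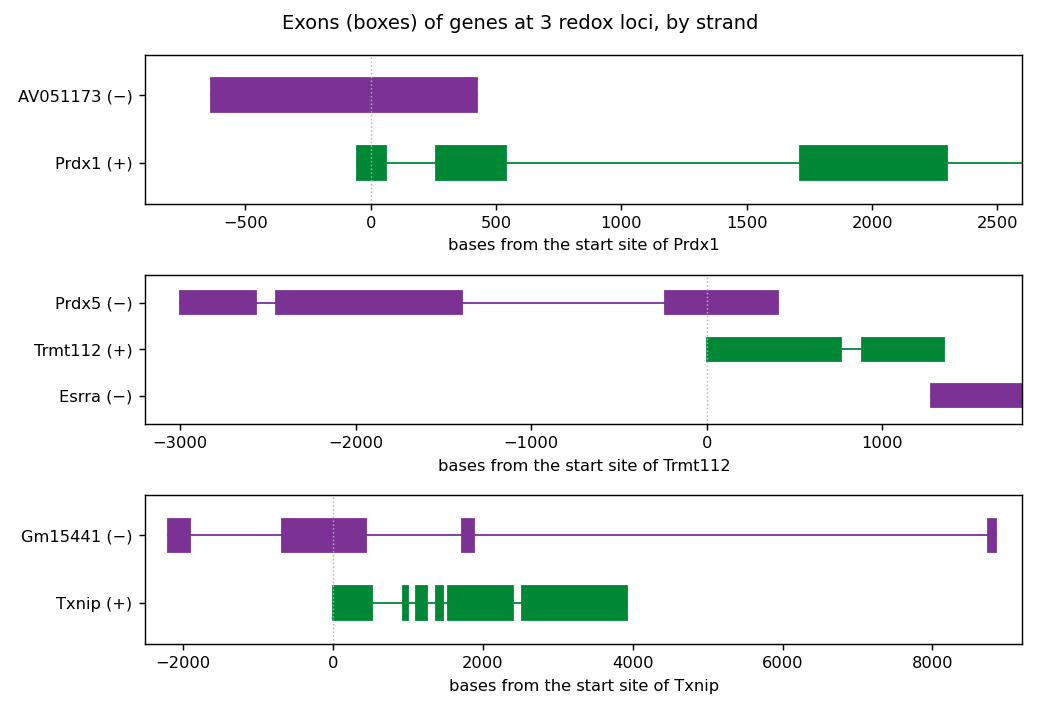
Exons (boxes) and introns (lines) of the genes at the 3 loci, by strand, against the distance in bases from the start site of Prdx1 (RefSeq), Trmt112 or Txnip, with zero as a dotted line. AV051173 covers the first exon of Prdx1, the first exon of Prdx5 overlaps that of Trmt112, and Gm15441 has exons that overlap the first exon of Txnip and one further in. AV051173 is drawn as its RefSeq span, and Prdx1 and Esrra continue beyond the right edge.

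The table does not say which strand was counted, and the libraries are stranded, so counting on the reverse strand is possible and was not tested. Under that setting the AV051173 row would hold reads of Prdx1, the Gm15441 row reads of Txnip, and the Prdx5 and Trmt112 rows reads of each other, where their exons overlap. A member's value is therefore the value of its row, and reads of the gene opposite may be any part of it, up to all. This matters for the highest rows. Of the 20 rows with the highest mean count, 19 could be placed on a gene model, AV051173 by RefSeq. All 19 overlapped an exon on the opposite strand by 20 bases or more. The share of all rows with such an overlap was not computed, so the strand setting cannot be read from this count. Rows of genes that every cell or every macrophage uses held few counts. The row of Actb, the cytoskeletal actin gene, held between 20 and 222 counts per library, and the 10 rows of macrophage marker genes summed to 336 to 532 CPM (library-scaled counts, per 1e6) in KO M1, 370 to 728 in KO M0, 393 to 496 in WT M1 and 546 to 628 in WT M0. None of those 10 rows was at 0. The sums hide rows that moved in opposite directions. In M1, 5 of the 10 were called higher and 3 lower in KO cells, and 4 higher and 2 lower in WT cells (edgeR adjusted p under 0.05). Of all tested rows, 25.2% were called higher and 22.4% lower in KO, and 25.7% and 23.1% in WT. Library totals ran between 372878 and 585465 counts, and CPM here are scaled with TMM factors, which adjust library sizes so that most rows do not shift. The Gpr31b row had 2 counts per library in WT M1 and none in the other 3 groups, too few to check the genotype labels.

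Of the other cell types a marrow culture could hold, 6 of 8 neutrophil rows, 6 of 7 lymphocyte rows, 5 of 6 erythroid and mast cell rows and 2 of 5 fibroblast rows were at 0 in all 12 libraries. These are rows of the genes' own names, and with the strand unknown and Actb this low, a row at 0 says little about the cell type. Of the 5 dendritic cell rows, Flt3 and Zbtb46 were at 0 throughout, and the 5 summed to 492 to 716 CPM in KO M1 against 29.4 to 50.9 in KO M0, and to 547 to 655 CPM in WT M1 against 33.7 to 47.2 in WT M0. Most of that sum was the Xcr1 row, with 596 ± 113 CPM in KO M1 and 593 ± 56.8 CPM in WT M1 (SD, n = 3 each). The Clec9a row went the other way, with 0 counts in KO M1 against 29 in KO M0 (edgeR adjusted p = 0.00509), and 1 count in WT M1 against 17 in WT M0 (adjusted p = 0.069). The Clec9a row passed the filter on low counts only through M0 libraries. That favours a lower value in M1, so these p-values are a description. The Siglech row held 0 counts in KO M1 against 3 in KO M0, and 0 in WT M1 against 6 in WT M0. The part of these rows in the members' values was not tested. In bulk samples, fewer cells of a type and less RNA per cell cannot be told apart.

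Promoter sequence is shown for Prdx1 and Txnip, the protein-coding genes opposite the AV051173 and Gm15441 rows, because matches to response elements of NRF2 and of the glucose-sensing factors were found there. The Prdx5 and Trmt112 windows held none of the motifs searched, so the loci with higher rows in M1 did not share the NRF2 motif. The CACGAG element of the glucose-sensing factors was found in the Txnip window alone. Whether any of these motifs acts on the rows was not tested. RefSeq promoter windows of GRCm38.p6, running 250 bases before to 50 bases after the start site, were at hand for 5 of the 6 members. The windows below start 150 bases before the RefSeq start site and end before the first annotated exon, at chr4:116685449-116685543 (plus strand) for Prdx1 and chr3:96557807-96557956 (plus strand) for Txnip. Capitals mark a match to the core of the antioxidant response element in Prdx1, and in Txnip the 2 CACGAG elements of a carbohydrate response element and a TATAA box.
Prdx1: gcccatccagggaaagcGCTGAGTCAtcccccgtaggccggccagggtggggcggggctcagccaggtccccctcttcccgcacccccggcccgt
Txnip: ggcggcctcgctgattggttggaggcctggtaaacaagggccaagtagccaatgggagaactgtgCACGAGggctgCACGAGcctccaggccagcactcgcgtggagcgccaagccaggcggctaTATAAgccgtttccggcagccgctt

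The antioxidant response element is the DNA site of NRF2, searched here as TGACNNNGC on both strands. Prdx1 held it on the minus strand, 133 bases before the start site (position −133), where it reads GCTGAGTCA on the plus strand. The other 4 windows held no match, and 12.4% of all 32817 promoter windows held one. Txnip held CACGAG at positions −85 and −74, in the same orientation and 5 bases apart. CACGAG alone was in 6.47% of all windows, and a pair in this orientation and spacing in 0.00305% of them, which is the Txnip window only. TATAA, in 24.9% of windows, was at −29 in Prdx1 and at −25 in Txnip. The interferon regulatory factor core TTTCNNTTT, in 10.5% of windows, matched in Prdx1 alone among the 5, at position 31 after the start site. ATTGG, in 37.4% of windows, was in AV051173 and Txnip, and neither CACGTG (7.15%) nor the gamma-activated site TTCNNNGAA (8.29%) was in any of the 5. These are matches of letters, not sites shown to be bound.

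At the Prdx1 locus, the AV051173 row was the row with the most counts in all 6 M1 libraries. In KO M1 it had 111808, 153617 and 120020 CPM, against 9338, 8358 and 7688 CPM in KO M0. In WT M1 it had 116934, 134720 and 114212 CPM, against 10029, 10909 and 13676 CPM in WT M0. Every M1 library stood far above every M0 library, and the 2 genotypes interleaved in M1. The row took 9.48 to 13.1% of a library in KO M1 against 0.921 to 1.1% in KO M0, and 9.21 to 11.3% in WT M1 against 1.22 to 1.57% in WT M0. Its fitted log2 fold change, M1 over M0, was 3.92 (standard error 0.16, 15.2-fold) in KO cells and 3.40 (standard error 0.15, 10.6-fold) in WT cells.

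The Prdx1 row moved the same way at far lower counts. It held 92, 181 and 106 counts in KO M1 against 2, 8 and 5 in KO M0, and 187, 90 and 57 in WT M1 against 8, 15 and 17 in WT M0. In CPM these were 339 ± 119 in KO M1, 9.99 ± 5.98 in KO M0, 279 ± 93.3 in WT M1 and 25.9 ± 10.3 in WT M0 (SD, n = 3 each). All M1 libraries were above all M0 libraries. The genotypes overlapped in both states, with WT M0 replicate 1 at 14 CPM below KO M0 replicate 2 at 15.9 CPM. The log2 fold change was 5.05 (standard error 0.39) in KO cells and 3.45 (standard error 0.33) in WT cells.

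Set against the row on the other strand, the Prdx1 row held a small and similar share in 3 of the groups. Per 1000 AV051173 counts there were 2.64 Prdx1 counts in KO M1 (2.23 to 3.1 across libraries), 1.18 in KO M0 (0.42 to 1.9), 2.44 in WT M1 (1.66 to 3.21) and 2.2 in WT M0 (1.4 to 2.93). These are ratios of counts, not of levels per length, and the KO M0 value rests on 15 Prdx1 counts. The Mmachc row, chosen after its values were seen because the gene lies on the minus strand 1457 bases past the end of Prdx1, summed to 18 counts in KO M1, 8 in KO M0, 19 in WT M1 and 0 in WT M0. In WT cells that is at least 8.83-fold higher in M1 than in M0, if the WT M1 counts are taken as exact. This sets 3 counts over the WT M0 group as the limit for a count of 0. The fold is at least 5.62, 6.2 and 5.84 without WT M0 replicate 1, 2 or 3. In KO cells the libraries overlapped, with 1, 6 and 11 counts in KO M1 and all 8 KO M0 counts in replicate 3.

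At the Prdx5 locus both rows were higher in M1, the Prdx5 row by far more. It held 36, 35 and 29 counts in KO M1 against 2, 4 and 0 in KO M0, and 50, 22 and 17 in WT M1 against 2, 2 and 0 in WT M0. The M1 libraries held at least 17 counts and the M0 libraries at most 4. The means were 90.8 ± 16.9 CPM in KO M1, 3.95 ± 3.97 in KO M0, 74.5 ± 23 in WT M1 and 2.59 ± 2.27 in WT M0 (SD, n = 3 each). The log2 fold change was 4.41 (standard error 0.63) in KO cells and 4.74 (standard error 0.68) in WT cells, and the M0 counts under it are so low that its size is uncertain.

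The Trmt112 row had 1673, 1316 and 1378 CPM in KO M1 against 525, 431 and 470 in KO M0. It had 1624, 1577 and 1750 CPM in WT M1 against 595, 505 and 515 in WT M0. The groups of each genotype did not overlap, and the log2 fold change was 1.61 (standard error 0.13, 3.06-fold) in both. The share of Prdx5 was higher in M1: per 1000 Trmt112 counts there were 62.2 Prdx5 counts in KO M1 against 8.38 in KO M0, and 48 in WT M1 against 4.69 in WT M0. The row of Esrra, a nuclear receptor gene whose last exon overlaps the end of Trmt112 by 73 bases on the opposite strand, was at 62.4 ± 11.7 CPM in KO M1, 63.8 ± 9.28 in KO M0, 64.9 ± 32.1 in WT M1 and 87.8 ± 18.7 in WT M0 (SD, n = 3 each). It was not called in KO cells (log2 fold change −0.03, adjusted p = 0.957) or in WT cells (−0.44, adjusted p = 0.327) by edgeR's quasi-likelihood test with Benjamini-Hochberg adjustment.

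At the Txnip locus the Gm15441 row was lower in M1. It had 15933, 15952 and 14603 CPM in KO M1 against 28142, 37861 and 34473 in KO M0. It had 15561, 17743 and 13853 CPM in WT M1 against 26339, 27439 and 22821 in WT M0. The M1 libraries of both genotypes lay in 1 narrow band, all M0 libraries lay above it, and the 3 KO M0 libraries were the highest of the 12. It ranked second, first and first among the rows of the KO M0 libraries and had rank 3 in every WT M0 library. The log2 fold change, M1 over M0, was −1.11 (standard error 0.10, 2.16-fold lower) in KO cells and −0.70 (standard error 0.10) in WT cells.

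The Txnip row was nearly empty. Its few counts were lower in M1 in WT cells, as those of Gm15441 were, and higher in M1 in KO cells, unlike those of Gm15441. It held 8, 8 and 6 counts in KO M1 against 2, 4 and 0 in KO M0, and 0, 0 and 0 in WT M1 against 13, 2 and 2 in WT M0. The sums were 22, 6, 0 and 17 counts in that order. In WT M1 the row was at least 4.06-fold lower than in WT M0, if the WT M0 counts are taken as exact. This sets 3 counts over the WT M1 group as the limit for a count of 0. The fold limit rests on WT M0 replicate 1: without it 4 counts remain and the limit is 1.5-fold. It is 2.27-fold without WT M1 replicate 1 and 2.87- and 2.98-fold without WT M1 replicate 2 or 3. In KO M1 the mean of the Txnip row was 20 ± 4.42 CPM against 3.95 ± 3.97 CPM in KO M0 (SD, n = 3 each). Per 1000 Gm15441 counts there were 1.28 Txnip counts in KO M1, 0.119 in KO M0, 0 in WT M1 and 0.424 in WT M0. In all rows together, 60.9% of the counts from 1 to 12 were even, so low counts may not be independent reads. Limits from counts of 0 cover the counting error of the group at 0 only. They leave out that of the other group and the spread between libraries.

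**Figure D2:**
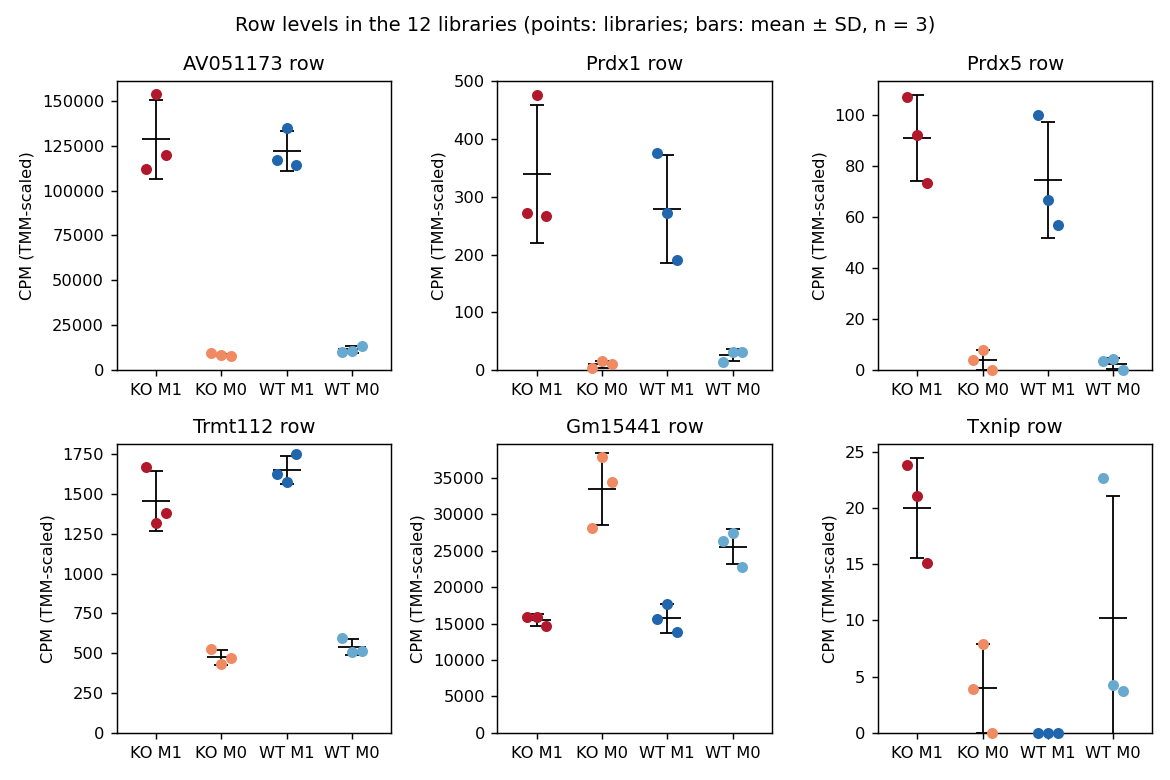
Level of each of the 6 rows in CPM (TMM-scaled, linear axis from 0, a different scale in each panel) in the KO M1, KO M0, WT M1 and WT M0 libraries; points are libraries and bars the mean ± SD of 3. The AV051173, Prdx1, Prdx5 and Trmt112 rows are higher in M1 in both genotypes, Gm15441 is lower in M1 with its highest libraries in KO M0, and the Txnip row is at 0 in all 3 WT M1 libraries.

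Of the 6 members, 5 passed the filter on low counts and entered the fit over 2333 rows, and Txnip did not. All 4 members described as higher in M1 were past an adjusted p of 0.05 in both genotypes, where 25.2% of all tested rows were called higher in KO cells and 25.7% in WT cells. Gm15441 was past it in the lower direction, where 22.4% of rows were called in KO cells and 23.1% in WT cells. The M1 and M0 libraries of all 5 did not overlap, as was the case for 55.3% of rows in KO cells and 56.2% in WT cells. Since the members were chosen on this contrast, nothing is read from these counts.

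The ratio of the AV051173 row to the Gm15441 row within a library sets the induced against the reduced locus and does not depend on library scaling. It was 7.02, 9.63 and 8.22 in KO M1 against 0.332, 0.221 and 0.223 in KO M0, and 7.51, 7.59 and 8.24 in WT M1 against 0.381, 0.398 and 0.599 in WT M0. AV051173 outnumbered Gm15441 in every M1 library, and the reverse held in every M0 library. On the log2 scale the mean was 3.04 ± 0.23 in KO M1 against −1.98 ± 0.34 in KO M0, a 32.4-fold difference, and 2.96 ± 0.07 in WT M1 against −1.15 ± 0.36 in WT M0, a 17.3-fold difference (SD, n = 3 each). Between libraries of the same label number the log2 ratio changed by 4.40, 5.45 and 5.20 in KO1, KO2 and KO3 and by 4.30, 4.26 and 3.78 in WT1, WT2 and WT3. The KO changes all exceeded the WT changes, KO1 by a small margin. This pairwise comparison was chosen after the ratios were seen and has no test.

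KO M0 libraries had lower ratios than WT M0 libraries, with a mean log2 difference of −0.82 (0.565-fold) and no overlap. The exact two-sided permutation p was 0.1, the smallest that 3 against 3 libraries allow. In M1 the ratio differed by 0.08 between KO and WT, less than the spread between libraries (exact permutation p = 0.7). The ratio of Trmt112 to Gm15441 showed the same split by state: it was 6.56-fold higher in KO M1 than in KO M0 and 5-fold higher in WT M1 than in WT M0. Between genotypes it overlapped, with log2 differences of −0.57 in M0 (exact permutation p = 0.2) and −0.17 in M1 (p = 0.5 in the same test).

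**Figure D3:**
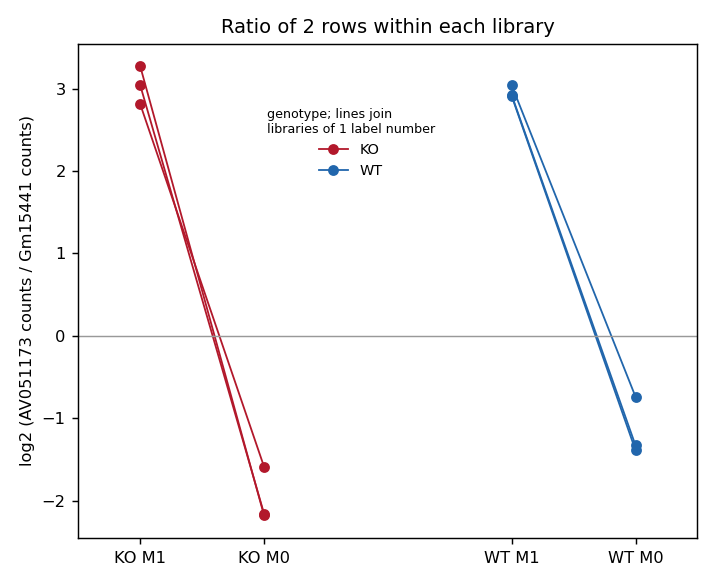
The log2 ratio of AV051173 counts to Gm15441 counts in each of the 12 libraries; lines join the M1 and M0 library of 1 label number, KO on the left and WT on the right. All M1 points lie above 0 and all M0 points below it, and the KO M0 points lie between −2.18 and −1.59, under all WT M0 points.

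The first genotype comparison asked whether unstimulated KO cells differed from unstimulated WT cells at these loci. None of the 5 tested members was called by edgeR's quasi-likelihood test with Benjamini-Hochberg adjustment over all 2333 rows, where 0.0429% of rows (1 row, Perm1, at 208 ± 28 CPM in KO M0 and 120 ± 10.5 in WT M0, named after its values were seen) were called. At an unadjusted p below 0.05 there were 3 of the 5 members and 151 of all rows. The largest of these effects for its error was in Gm15441, at 33492 ± 4934 CPM in KO M0 and 25533 ± 2412 CPM in WT M0 (SD, n = 3 each). Its log2 fold change, KO over WT, was 0.39 (95% interval 0.20 to 0.59), higher in 3 of 3 KO libraries than in any WT library, with an unadjusted p of 0.000334 and an edgeR adjusted p of 0.26. The adjusted p lay between 0.00119 and 0.863 over 21 alternative settings, 2 of which called it.

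AV051173 lay in the other direction in M0, at 8461 ± 830 CPM in KO and 11538 ± 1903 CPM in WT libraries (SD, n = 3 each), again with no overlap. Its log2 fold change was −0.45 (95% interval −0.76 to −0.13, edgeR adjusted p = 0.587, and between 0.0892 and 1 over the alternatives). Prdx1 changed by −1.33 (−2.38 to −0.29, edgeR adjusted p = 0.614), on 15 counts in KO M0 and 40 in WT M0, and its groups overlapped. Trmt112 changed by −0.18 (−0.44 to 0.08) and Prdx5 by 0.59 (−1.37 to 2.55), the last on 6 and 4 counts. The interval for Prdx5 is too wide to exclude a several-fold difference either way. Groups did not overlap for 2 of the 5 tested members, AV051173 and Gm15441, against 11.9% of all rows.

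In M1 the fitted genotype differences had intervals that include 0. KO over WT, the log2 fold change was 0.08 for AV051173 (95% interval −0.24 to 0.39), −0.02 for Gm15441 (−0.22 to 0.18), −0.18 for Trmt112 (−0.43 to 0.07), 0.26 for Prdx1 (−0.27 to 0.80) and 0.26 for Prdx5 (−0.68 to 1.20). No member was called, with edgeR adjusted p-values of 0.861 to 0.986, and 0% of all rows were called, by DESeq2 and limma-voom as well. At an unadjusted p below 0.05 there were 164 rows and none of the 5 tested members. The intervals of the Prdx1 and Prdx5 rows are the widest. No tested member had groups that did not overlap, against 10.8% of all rows.

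The untested Txnip row was the exception in M1: 8, 8 and 6 counts in KO libraries and 0 in each WT library (exact permutation p = 0.1, the smallest possible). It was at least 7.44-fold higher in KO, with the limit of 3 counts over the WT group and the KO counts taken as exact. The limit is 4.16-fold without WT M1 replicate 1. When the fit was run without the filter, over 11497 rows, its edgeR adjusted p was 0.485 in M1 and 0.843 in M0. The row passed no genotype test.

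The interaction asked whether the response to LPS and IFN-γ differed between genotypes. AV051173 responded by 0.52 more in KO than in WT on the log2 scale (95% interval 0.08 to 0.96, edgeR adjusted p = 0.71), Prdx1 by 1.60 more (0.43 to 2.77, adjusted p = 0.606 in the same test) and Gm15441 by 0.41 more in the downward direction (−0.41, −0.69 to −0.14, adjusted p = 0.605). These 3 had an unadjusted p below 0.05, as did 144 of all rows, and 0% of rows were called, by DESeq2 and limma-voom as well. This fit does not pair libraries of 1 label number. Over 21 alternative settings of edgeR, DESeq2 and limma-voom the lowest adjusted p was 0.123 for AV051173, 0.287 for Prdx1 and 0.0681 for Gm15441. No setting called any of the 3. Trmt112, at −0.00 (−0.39 to 0.38), and Prdx5, at −0.33 (−2.35 to 1.69), had intervals that span 0. For AV051173, Prdx1 and Gm15441 the fitted difference between genotypes was larger in size in M0 than in M1.

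**Figure D4:**
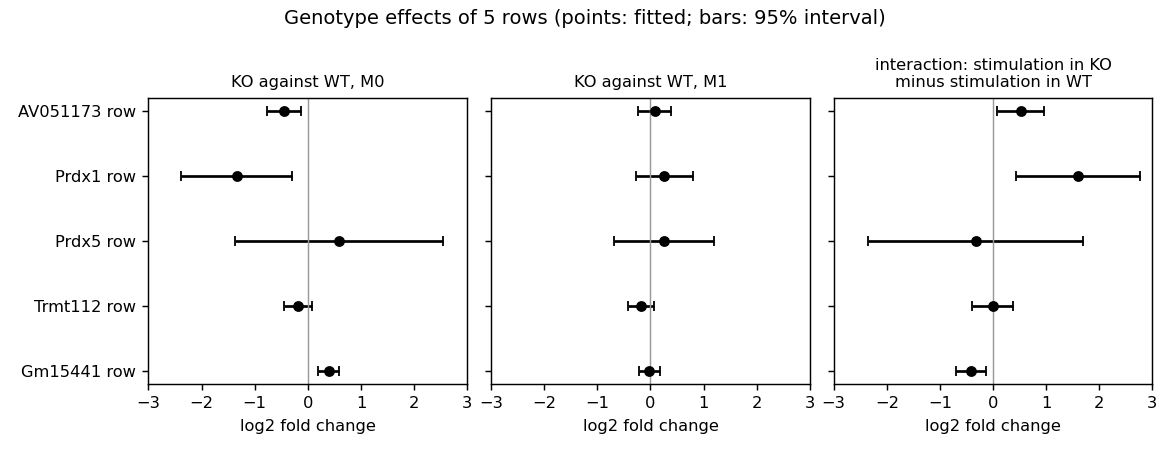
Fitted log2 fold changes of the 5 tested rows with 95% intervals, for KO against WT in M0, KO against WT in M1, and the interaction (M1 over M0 in KO minus that in WT). In M0 the intervals of AV051173, Prdx1 and Gm15441 leave out 0, in M1 all 5 include it, and none of the 15 values was called after adjustment over all rows.

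Other genes of these pathways were read from lists chosen with earlier results of these data known: other peroxiredoxins, the thioredoxin system, relatives of Txnip, glutathione enzymes, NRF2 and its targets, superoxide and NADPH oxidase genes, and the methyltransferase partners of Trmt112. Of 84 rows that carry these names, 22 passed the filter. As for the members, each value is that of a row, and reads of a gene opposite may be part of it. In M1, KO cells had 9 of them called higher and 1 lower, and WT cells 8 higher and 1 lower, by edgeR's quasi-likelihood test with Benjamini-Hochberg adjustment over all rows. That is 40.9% higher and 4.55% lower in KO, beside 25.2% and 22.4% of all tested rows, and 36.4% higher and 4.55% lower in WT, beside 25.7% and 23.1% of all tested rows. Their median log2 fold change was 0.98 in KO and 0.78 in WT cells, beside a median of 0.01 and −0.03 over all tested rows. Because of how the lists were chosen, these shares and the stimulation calls below are a description, and no enrichment is read from them. Among the rows named below, Sod2, Keap1 and Junb held few counts in M0 and passed the filter on their M1 libraries. Hmox1, Pgd, Txnrd1 and Gss were also low in M0, with 9 to 30 counts per M0 group, and their entry rested largely on M1 libraries. For rows that enter through the group where they are high, the filter favours a call in that direction. A further 14 rows overlap a listed gene on the opposite strand, of which 9 were tested; 2 were called higher and 2 lower in KO cells, and 5 higher and 2 lower in WT cells. In KO these shares, 22.2% each, are near those of all tested rows, and in WT they are 55.6% and 22.2%. None of these rows was called between genotypes or in the interaction.

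Among NRF2 and its targets, 4 of 7 tested rows rose in both genotypes, where 25.2% of all tested rows rose in KO and 25.7% in WT cells. Keap1, the adaptor that directs NRF2 to degradation, had the largest rise and lies opposite Gm16754. Its row was at 104 ± 13.3 CPM in KO M1 against 6.63 ± 1.05 in KO M0 (edgeR adjusted p = 2.75e-07), and at 81.1 ± 31 CPM in WT M1 against 4.21 ± 3.71 in WT M0 (adjusted p = 3.2e-07). Hmox1, which breaks down heme, was at 98.6 ± 28.2 CPM in KO M1 against 7.31 ± 1.19 in KO M0, and at 80.1 ± 24.9 CPM in WT M1 against 18.5 ± 7.79 in WT M0 (edgeR adjusted p = 2.77e-07 and 0.000219). Fth1, the ferritin heavy chain gene, rose by 2.45 in KO and 2.50 in WT cells on the log2 scale (edgeR adjusted p = 1.97e-05 and 1.51e-05). Pgd, of the NADPH-making pentose phosphate pathway, rose to 48.6 ± 1.67 CPM in KO M1 against 12 ± 14.3 in KO M0, and to 44.4 ± 13.9 CPM in WT M1 against 10.4 ± 7.65 in WT M0 (edgeR adjusted p = 0.019 and 0.0182). The Pgd call was lost in both genotypes with library size alone in place of TMM scaling. It was also lost in KO cells without KO M0 replicate 1 or 3. In WT cells it was also lost without WT M1 replicate 2 or WT M0 replicate 2 or 3.

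In the thioredoxin system 2 of 21 rows were tested, and they went opposite ways. Txnrd1, the cytosolic thioredoxin reductase gene, rose by 2.08 in KO cells (standard error 0.81, edgeR adjusted p = 0.0343) and 2.34 in WT cells (standard error 0.87, edgeR adjusted p = 0.026). Each Txnrd1 call was lost under 5 of 20 alternatives. They include leaving out KO M1 replicate 2 or KO M0 replicate 2 or 3 in KO cells, and WT M1 replicate 1 or any WT M0 library in WT cells. Txnrd2, the mitochondrial reductase gene, fell by 1.67 on the log2 scale in KO cells and by 1.35 in WT cells (edgeR adjusted p = 0.0003 and 0.00202), called under all 22 alternatives.

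Of the other peroxiredoxins only the Prdx2 row passed the filter, and it was not called, at 19.8 ± 8.35 CPM in KO M1, 17.2 ± 7.26 in KO M0, 17.5 ± 5.79 in WT M1 and 12 ± 9.92 in WT M0 (SD, n = 3 each). The Junb row, which overlaps Prdx2 on the opposite strand and encodes an immediate-early transcription factor, rose by 2.92 in KO and 2.35 in WT cells (edgeR adjusted p = 0.00182 and 0.00887), the WT call being lost without WT M1 replicate 2. Gss, which makes glutathione, lies opposite Acss2, Gssos1 and Gssos2. Its row rose by 2.58 in KO and 1.90 in WT cells (edgeR adjusted p = 0.000541 and 0.0089), the WT call being lost without WT M0 replicate 1 or 2. The Gss row was 1 of 3 glutathione rows tested.

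Of 6 tested rows for superoxide enzymes and the NADPH oxidase, 3 rose in KO and 2 in WT cells, the WT count being near the 25.7% of all tested rows that rose there (25.2% in KO). Sod2, the mitochondrial superoxide dismutase gene, rose by 4.23 in KO cells and 5.09 in WT cells on the log2 scale (edgeR adjusted p = 0.000197 and 2.74e-05). It held 47 counts in KO M1 against 3 in KO M0, and 60 in WT M1 against 2 in WT M0, so the size is uncertain: the log2 value ran between 3.71 and 7.21 in KO and between 4.58 and 7.51 in WT over the alternatives, with the call kept in all 21. The highest values are those without KO M0 replicate 2 and without WT M0 replicate 1, which hold all the M0 counts of their genotype, and are no bounds. Cybb, the membrane subunit of the phagocyte oxidase, was at 115 ± 33 CPM in KO M1 against 28.5 ± 5.73 in KO M0, and at 137 ± 31.5 CPM in WT M1 against 24.5 ± 9.35 in WT M0 (edgeR adjusted p = 4.15e-05 and 1.63e-06). Ncf1, a cytosolic subunit whose gene lies opposite Gtf2ird2, was called in KO cells (2.53, edgeR adjusted p = 0.00941, lost without KO M1 replicate 2) and not in WT cells (0.81, adjusted p = 0.361). The difference between these responses was not called (interaction 1.73, edgeR adjusted p = 0.862). None of the 8 relatives of Txnip and glucose-sensing genes could be tested from its own row, and none of the 3 tested methyltransferase partners of Trmt112 was called. The Gt(ROSA)26Sor row, opposite the partner gene Thumpd3, fell by 0.71 in KO and 0.60 in WT cells (edgeR adjusted p = 6.06e-05 and 0.000405).

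**Figure D5:**
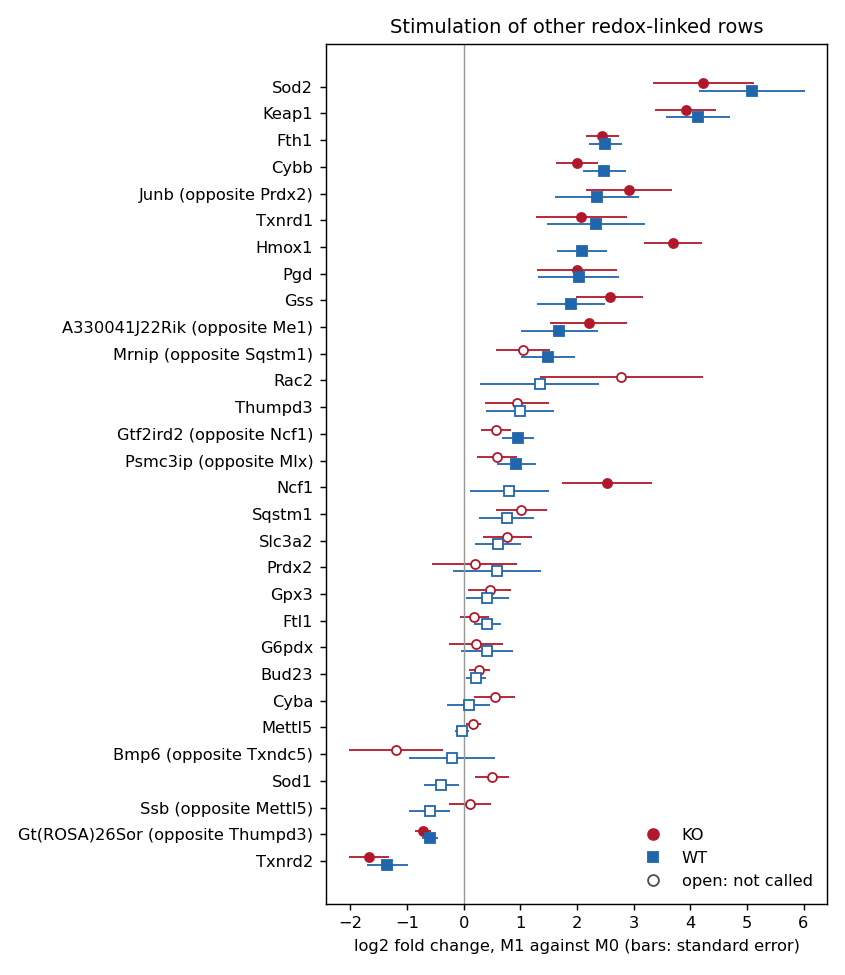
Fitted log2 fold changes, M1 over M0, of the tested rows from the redox lists, with standard errors; red circles are KO and blue squares WT, filled where called at an adjusted p under 0.05. Sod2 and Keap1 have the largest rises in both genotypes, and Txnrd2 the largest fall in both among the rows shown.

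The rows most like each member were found by the root mean square difference of centred log2(CPM + 1) profiles over the 12 libraries, among 871 rows of 100 CPM or more on average, with Prdx5 and Txnip too low to enter. Nearest to AV051173 were 1700071M16Rik (0.29), Unc5a (0.31), 4933416M07Rik (0.35), Pank2 (0.39) and Slfn5os (0.39). Nearest to Prdx1 were Xcr1 and Kdm7a (0.63 each), Unc5a (0.67), AV051173 itself (0.68) and Apobr (0.71). Nearest to Trmt112 were AY074887 (0.10), Tor1aip2 (0.11), Gm6297 (0.12), Mir6340 (0.13) and 3110062M04Rik (0.14). Nearest to Gm15441 were Fam208b (0.16), 0610039K10Rik (0.18), Rrp8 (0.19), Taf6 (0.21) and Stub1 (0.21). The 0610039K10Rik row, like Gm15441, was highest in KO M0, at 4694 ± 151 CPM in KO M1, 9474 ± 922 in KO M0, 5042 ± 720 in WT M1 and 7697 ± 519 in WT M0 (SD, n = 3 each).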

How the data were processed

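Macrophage RNA was sequenced from stranded TruSeq mRNA libraries on an Illumina NovaSeq instrument, per the labels' protocols. The authors deposited 1 table of raw read counts, with a row for each gene symbol and a column for each library. The submitters' processing notes name Trimmomatic, FastQC, HTSeq, DESeq2 and mm10, with no versions. Which aligner, annotation and strand option were used is not given in the sources used here.

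Rows were filtered with filterByExpr, scaled with TMM factors and tested with edgeR 4.0.16 (quasi-likelihood, 4 group means, 12 libraries) under R 4.3.3, with Benjamini-Hochberg adjustment over 2333 rows and a threshold of 0.05. DESeq2 1.42.0 and limma-voom (limma 3.58.1) were alternatives. Limits from counts of 0 were recomputed with each library left out, an alternative chosen after seeing the data. Single ratios were compared by exact permutation over samples in scipy 1.17.1. Overlaps need 20 bases or more of GENCODE M21 exons on the opposite strand (RefSeq for AV051173). Sequences are RefSeq's, on GRCm38.p6.

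The members and lists were chosen with earlier results of these data known. Named were all members, the rows overlapping them, and the 5 rows nearest to each member in pattern. From each redox list came up to 3 rising and 3 falling rows, called in both genotypes, whose M1 and M0 libraries do not overlap. The Psmc3ip and Gtf2ird2 rows, called higher in WT cells only, were counted without their values. Rows of the marker lists were summed or counted, with only dendritic cell rows detailed. Pgd, Txnrd1, Prdx2, Ncf1, Mmachc and Perm1 were added after their values were seen. Another row of the lists is counted but not reported here. Libraries of 1 label number tended to deviate together: correlations of deviations from the group means were 0.18 to 0.54 between M1 and M0 and 0.12 to 0.56 between genotypes. All were over 0.1, so the numbers were taken as pairs in the blocked alternatives. The best match was not always the same number. It was not for number 1 between KO M1 and KO M0, number 1 between genotypes in M0, or numbers 1 and 3 between genotypes in M1.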

Additional observations from a re-analysis of the deposited data

Results flagged for a closer look

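The Txnip row differed between genotypes in the direction of its M1 values. In M1 its 3 KO libraries held 22 counts in all, against 0 in the 3 WT libraries, while in M0 they held 6 in KO and 17 in WT. Every KO M1 library was above the highest KO M0 library, and every WT M1 library was below the lowest WT M0 library. The row was too low for the filter. In the fit without a filter, over 11497 rows, the interaction had a log2 value of 7.46 (standard error 2.19), an unadjusted p of 0.000641 and an edgeR adjusted p of 0.56. With WT M1 at 0 that fitted value depends on the prior count and is no bound. The counts are few, 13 of the 17 in WT M0 came from 1 library, and even counts were more frequent than odd ones across the table.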

How the results depend on the processing

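The stimulation values of the 5 tested members kept their direction under all 22 alternatives. With library size alone, which shifts the median of all rows to −0.46 in KO and −0.53 in WT, AV051173 was at 3.45 in KO and 2.90 in WT, Trmt112 at 1.14 and 1.11, and Gm15441 at −1.59 and −1.21, on the log2 scale; rows called were then 393 higher and 850 lower in KO and 397 higher and 881 lower in WT. Rows called between genotypes in M0 numbered 0 with library size alone, with library sizes counted without AV051173, with DESeq2, limma-voom, halved counts, the replicate block by number, or only the 2 groups, and 4 without the filter, against 1; leaving out 1 library gave 0 to 2. In M1 leaving out 1 library gave 0 to 1 rows. The interaction had 3 called rows without the filter and 3 with the replicate block by label (KO1, WT1 and so on), against 0, and 0 to 3 with 1 library left out. The replicate block changed no call of a member.

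Gm15441 in M0 was called without the filter (0.39, adjusted p = 0.00119) and without KO M0 replicate 1 (0.47, adjusted p = 0.00485), with 0.27 to 0.47 over the libraries left out. With 1 library left out, these values changed sign within their ranges: Prdx5 in M0 (−0.33 to 1.09), AV051173 in M1 (−0.08 to 0.14), Prdx1 in M1 (−0.07 to 0.56), Gm15441 in M1 (−0.13 to 0.05, and 0.02 with library size alone), the interaction of Prdx5 (−0.84 to 0.58), that of Trmt112 (−0.12 to 0.10, with 0.03 for library size alone and 0.00 without the filter), and the AV051173 to Gm15441 ratio in M1 (−0.03 to 0.19). The ratio in M0 stayed between −1.02 and −0.62. Of the 5 nearest rows of a member at least 2 remained with any library left out. The causes were not tested. The depth, at most 585465 counts in a library, limits Prdx1, Prdx5 and Txnip most: Prdx1 and Prdx5 had no genotype value in M0 with only the 2 M0 groups in the fit, since their rows then failed the filter.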
